A study of Mus musculus with 12 samples.

Results

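Running-labelled hearts were compared with sedentary-labelled hearts by a label difference averaged over the genotypes. A separate rule asked for the same sign and no overlap between the labels in each genotype. The average alone does not require a difference in both genotypes. KO mice came from floxed Cited4 mice crossed to a line with cre under aMHC, a promoter of heart muscle cells, so the deletion is aimed at cardiomyocytes. Flox mice carried the floxed Cited4 alleles without deletion, and no group had cre with intact Cited4. The 12 whole-heart libraries fell into 4 groups of 3, which were KO labelled exercise, KO labelled sedentary, Flox labelled exercise and Flox labelled sedentary. Exercise was voluntary wheel running, and both labels covered 8 weeks. Age, sex and time of collection were not analysed here, and no label ties a sample to a mouse. The p-values therefore rest on the spread among the 3 libraries of a group, which may be partly technical. The treatment words and the letter codes in the sample titles read opposite ways. The words were used, and if the codes were right instead, every direction below would turn.

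All 15226 genes with enough counts were tested, with genotype as a term. The value per gene is the log2 difference of the exercise label over the sedentary label, averaged with equal weight over KO and Flox. Among them, 136 genes had the same sign in both genotypes and no overlap between the labels in either, and these are described here with 41 gene lists. Total counts ran from 17465401 to 20467260 per library. Cited4, a transcriptional co-regulator, had 3, 0 and 0 counts in KO exercise libraries and 5, 2 and 0 in KO sedentary libraries. It had 406, 261 and 431 counts in Flox exercise libraries and 276, 192 and 295 in Flox sedentary libraries. The cardiomyocyte marker mean was between 10.98 and 11.47 log2 CPM (counts scaled to a common library size) in every library, and no lung or thymus marker passed the filter. Atrial marker means ran from 2.24 to 7.20 log2 CPM, highest in KO sedentary 2 and 3, and in these bulk samples fewer cells of a type and less RNA per cell cannot be told apart. A cloning-vector entry held 14311 to 32744 counts in 7 libraries, which came from all 4 groups, and at most 1 count in the other 5.

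The heart, like most organs, has its own circadian clock. CLOCK or NPAS2 pairs with BMAL1 (gene Arntl) and switches on genes through E-box sequences, among them the Per, Cry, Nr1d and Bhlhe genes, whose proteins then repress the pair or Arntl itself. DBP, TEF and HLF carry the rhythm to D-box genes, where NFIL3 acts against them. Heat shock chaperones keep proteins folded in the cytosol and are switched on by HSF1 at heat shock elements, while a second chaperone set works in the endoplasmic reticulum (ER).

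Promoter windows from RefSeq (build GRCm38.p6), from 250 bases before to 50 after each gene's start, were matched by symbol for 11252 of 15226 tested genes. The windows of Pfkfb3 and Bhlhe41, which were lower under the exercise label on average, are shown for their E-box (CACGTG). Those of Chordc1 and Dnaja1, with higher averages, are shown for the heat shock element (GAANNTTC). Both motifs were searched on both strands, neither overlaps the other, and capitals mark the matches.
Pfkfb3 (E-box, chr2:11502041-11502340, minus strand): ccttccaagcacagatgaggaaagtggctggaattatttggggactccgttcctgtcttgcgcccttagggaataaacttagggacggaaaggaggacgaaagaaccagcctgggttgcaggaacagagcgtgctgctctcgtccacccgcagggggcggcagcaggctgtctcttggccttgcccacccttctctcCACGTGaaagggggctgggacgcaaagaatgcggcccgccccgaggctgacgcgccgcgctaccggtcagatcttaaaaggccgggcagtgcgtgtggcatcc
Bhlhe41 (E-box, chr6:145865371-145865670, minus strand): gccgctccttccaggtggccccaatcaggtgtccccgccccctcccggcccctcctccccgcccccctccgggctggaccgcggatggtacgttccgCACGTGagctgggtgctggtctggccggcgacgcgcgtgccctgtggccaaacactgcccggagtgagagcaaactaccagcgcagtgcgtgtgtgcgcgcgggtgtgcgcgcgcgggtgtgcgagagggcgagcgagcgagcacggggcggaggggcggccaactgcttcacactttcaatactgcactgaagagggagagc
Chordc1 (heat shock elements, chr9:18292017-18292316, plus strand): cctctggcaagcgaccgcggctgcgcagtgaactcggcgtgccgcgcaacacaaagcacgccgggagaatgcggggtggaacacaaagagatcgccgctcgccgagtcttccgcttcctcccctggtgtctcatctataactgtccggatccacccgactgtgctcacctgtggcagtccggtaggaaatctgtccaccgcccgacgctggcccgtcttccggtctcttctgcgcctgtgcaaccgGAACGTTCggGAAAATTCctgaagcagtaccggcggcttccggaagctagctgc
Dnaja1 (heat shock element, chr4:40722218-40722517, plus strand): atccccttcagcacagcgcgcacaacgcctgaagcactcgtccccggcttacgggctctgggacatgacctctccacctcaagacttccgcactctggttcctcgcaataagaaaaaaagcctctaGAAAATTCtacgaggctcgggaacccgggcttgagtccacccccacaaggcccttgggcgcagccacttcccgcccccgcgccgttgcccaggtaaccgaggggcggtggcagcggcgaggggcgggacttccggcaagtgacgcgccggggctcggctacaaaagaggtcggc
Pfkfb3 and Dnaja1 had other annotated starts, whose windows held neither motif. A gene was counted once, if any of its windows held the motif, so genes with more annotated starts had more chances of a match. The E-box was found for 8 of 25 clock genes with windows from 3 lists (32.0%), against 11.5% of all genes with windows. The heat shock element was found for 12 of 20 heat shock chaperone genes with windows (60.0%), against 6.95% of all genes with windows. By clock list, the E-box was found for 4 of 10 repressor, 0 of 4 activator and 4 of 11 output genes with windows. The repressor list alone had windows for 76.9% of its genes, under the 80% set for a motif check. Windows were found for 80.6% of the pooled clock genes and 80.0% of these chaperone genes. For the genes without overlap in both genotypes they were found for 37 of 54 with higher levels (68.5%) and 64 of 82 with lower levels (78.0%), under the 80% set for a motif check, so that check was void. Of the genes with windows, 10.8% (higher) and 10.9% (lower) held the heat shock element, and 8.11% (higher) and 14.1% (lower) the E-box. Bhlhe40 and Hspa8 had no entry in the table of windows.

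Of 15226 genes, 4 (0.0263%) passed an adjusted p of 0.05 for the averaged label difference (edgeR's quasi-likelihood test, Benjamini-Hochberg adjustment), and all 4 fell under the exercise label. They were Bhlhe40, Pfkfb3, Angptl2 and Clstn3, and each had no overlap between the labels in KO or in Flox. No gene rose. At an unadjusted p under 0.05, 1287 genes differed (8.45%), of which 545 were higher (3.58%) and 742 were lower (4.87%), and DESeq2 called 16 higher and 35 lower, which included all 4. In KO alone edgeR's test passed 3 genes (0.0197%, and 1617, or 10.6%, at an unadjusted p under 0.05), and in Flox alone none (1129, or 7.41%, at an unadjusted p under 0.05). No interaction between label and genotype passed edgeR's test, with 1505 genes (9.88%) at an unadjusted p under 0.05.

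Bhlhe40 (chr6:108660629-108666925, plus strand, GRCm38) encodes the clock repressor DEC1. It had 42.5, 50.1 and 37.2 CPM in KO exercise libraries, against 62.3, 64.7 and 75.6 CPM in KO sedentary libraries. In Flox Bhlhe40 had 39.4, 34.4 and 32.6 CPM in exercise libraries, against 61.5, 68.8 and 69.3 CPM in sedentary libraries. All 6 exercise libraries lay below all 6 sedentary libraries, whichever the genotype. The averaged log2 difference was -0.78 ± 0.09 (SE), with an adjusted p of 0.0103 in edgeR's test, and was -0.64 ± 0.12 in KO and -0.91 ± 0.13 in Flox. The label difference in KO minus that in Flox had an unadjusted p of 0.153 in edgeR's test. Bhlhe40 lost its call without Flox exercise 2, Flox sedentary 2, Flox sedentary 3 or KO exercise 1, with an adjusted p of 0.0724 at most.

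Pfkfb3 (chr2:11471433-11554077, minus strand, GRCm38) makes fructose 2,6-bisphosphate, an activator of glycolysis. It had 9.32, 11.0 and 7.78 CPM in KO exercise libraries, against 14.2, 21.2 and 24.7 CPM in KO sedentary libraries. In Flox Pfkfb3 had 6.15, 6.25 and 8.75 CPM in exercise libraries, against 13.3, 15.01 and 16.8 CPM in sedentary libraries. The highest exercise library, KO exercise 2, stayed below the lowest sedentary one, Flox sedentary 1. The averaged difference was -1.09 ± 0.15, nearly alike in KO (-1.09 ± 0.21) and in Flox (-1.10 ± 0.21), and passed edgeR's test with an adjusted p of 0.0387. Leaving out 1 library moved that adjusted p to between 0.00494 and 0.167. Of the 30 glycolysis genes tested, 24 were higher under the exercise label on average (median 0.10), with 25 higher in KO (median 0.22) and 12 in Flox (median -0.02). With all 12 libraries in the fit, only Pfkfb3 of these 30 passed. Without KO sedentary 2 and 3 the averaged median was 0.005, and Pfkfb3 differed by -0.85.

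Angptl2 (chr2:33216069-33247717, plus strand, GRCm38) encodes a secreted angiopoietin-like protein. It had 75.5, 67.7 and 65.7 CPM in KO exercise libraries, against 92.9, 124 and 112 CPM in KO sedentary libraries. In Flox Angptl2 had 58.5, 62.9 and 65.6 CPM in exercise libraries, against 80.9, 108 and 100 CPM in sedentary libraries. The labels were again apart over all 12 libraries. The averaged difference was -0.64 ± 0.09, with -0.65 ± 0.13 in KO and -0.63 ± 0.13 in Flox, and an adjusted p of 0.0460 in edgeR's test. The call ended in 10 of the 12 fits that left out 1 library, with an adjusted p of 0.195 at most.

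Clstn3 (chr6:124430759-124464794, minus strand, GRCm38) encodes a calsyntenin, and its locus also yields a fat-cell isoform in mouse. Its counts were 5, 2 and 4 in KO exercise libraries, against 51, 47 and 130 in KO sedentary libraries. In Flox they were 5, 5 and 4 in exercise libraries, against 9, 9 and 7 in sedentary libraries. The labels did not overlap in Flox either, but a few counts decided that. The averaged difference was -2.47 ± 0.37 (adjusted p = 0.0486, edgeR's quasi-likelihood test), made of -4.15 ± 0.50 in KO and -0.80 ± 0.54 in Flox. The difference between the genotypes had an unadjusted p of 0.000641 and an adjusted p of 0.379 in edgeR's test, so Clstn3 is shared in sign and not shown to be shared in size. Adipocyte marker means moved with it, at 2.67 to 2.89 log2 CPM in KO exercise libraries and 4.68 to 5.17 in KO sedentary libraries, against 2.21 to 3.02 in Flox exercise libraries and 1.83 to 3.08 in Flox sedentary libraries. Their part in the Clstn3 difference was not tested. In fits that left out 1 library the call held only without KO sedentary 1 or KO sedentary 2, and the adjusted p was 0.233 at most.

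**Figure D1:**
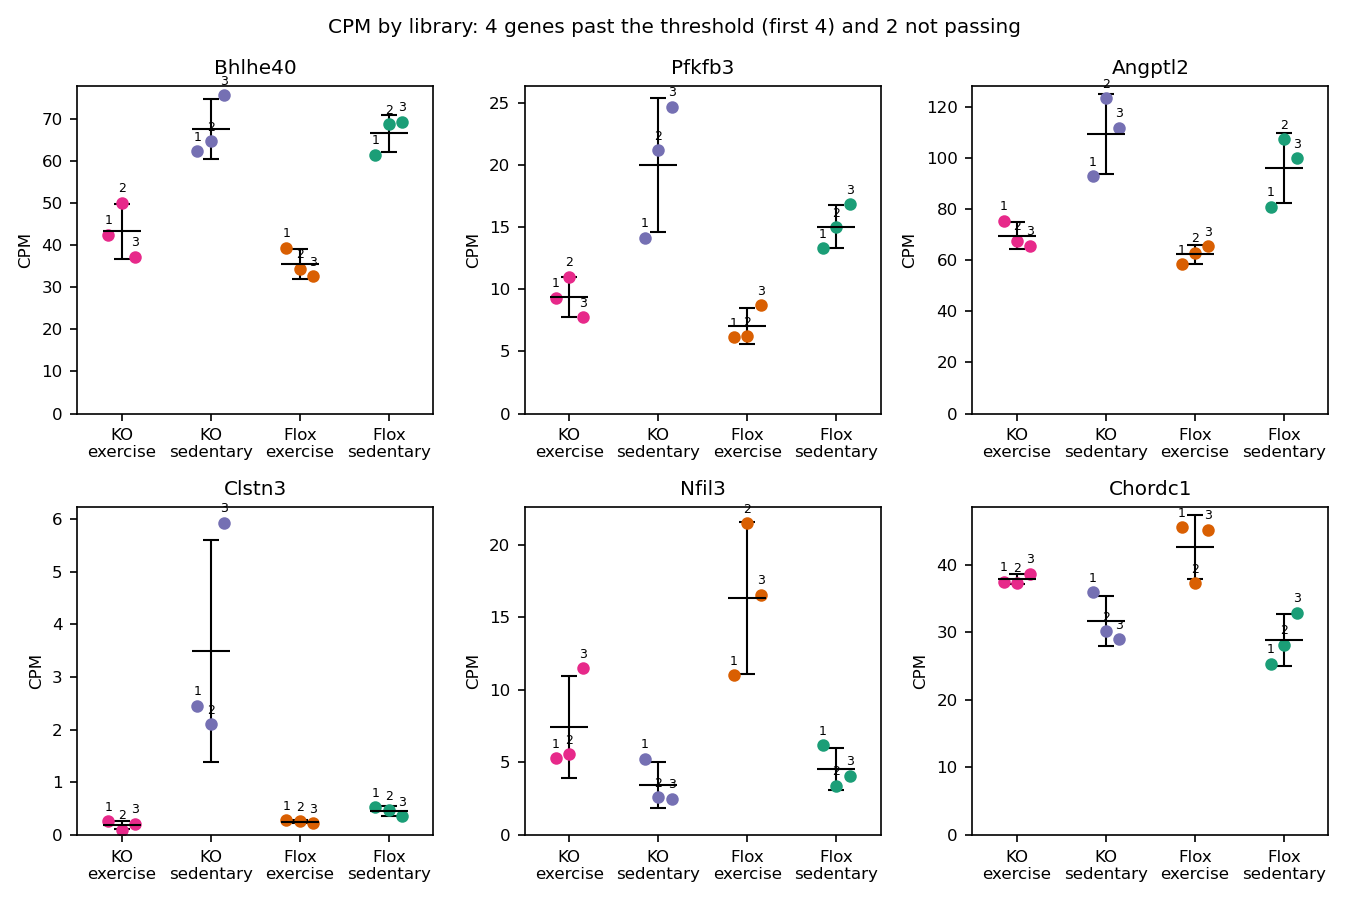
CPM per library (points, numbered by replicate) with mean and SD (bars, n = 3) in each group, for the 4 genes that passed and for Nfil3 and Chordc1, which did not. Bhlhe40 stayed between 32.6 and 50.1 CPM in exercise libraries and between 61.5 and 75.6 CPM in sedentary libraries, while Clstn3 exceeded 2 CPM in the 3 KO sedentary libraries only.

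The sign rule kept 136 of 15226 genes (0.893%), of which 54 were higher (0.355%) and 82 were lower (0.539%) under the exercise label. Just as many genes, 136 (0.893%), had no overlap in both genotypes with opposite signs. Of these, 91 (0.598%) were lower in KO and higher in Flox, and 45 (0.296%) were the reverse. Same-sign separation was therefore no more frequent than opposite-sign separation. Within 1 genotype, 2000 genes (13.1%) had no overlap in KO and 2143 (14.1%) in Flox. The split by direction depended on the scaling. On plain library totals 177 genes had same-sign separation, 8 higher and 169 lower, and 63 of them were among the 136.

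The log2 differences of the 54 genes with higher levels ran from 0.12 to 2.92 (median 0.29), and those of the 82 with lower levels from -2.63 to -0.11 (median -0.42). Of the 136, 128 had an unadjusted p under 0.05 in edgeR's test, against 8.45% of all genes. An unadjusted interaction p under 0.05 was found for 7, against 9.88% of all genes. The rule picked the 136 by the same values, so both counts follow in part from it and give no separate support. Of the 136, 124 averaged at least 1 CPM. Annotation named 120 of 136 as protein coding (88.2%), against 89.8% of tested genes with a position. Process lists held 14 of the 136 and marker lists held none. Just inside the rule, Dnajb11 had 39.7, 39.3 and 46.8 CPM in KO exercise libraries, against 38.8, 36.6 and 39.2 CPM in KO sedentary libraries. Just outside it, Ldha had 523, 510 and 449.9 CPM in KO exercise libraries, against 450.1, 417 and 444 CPM in KO sedentary libraries.

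**Figure D2:**
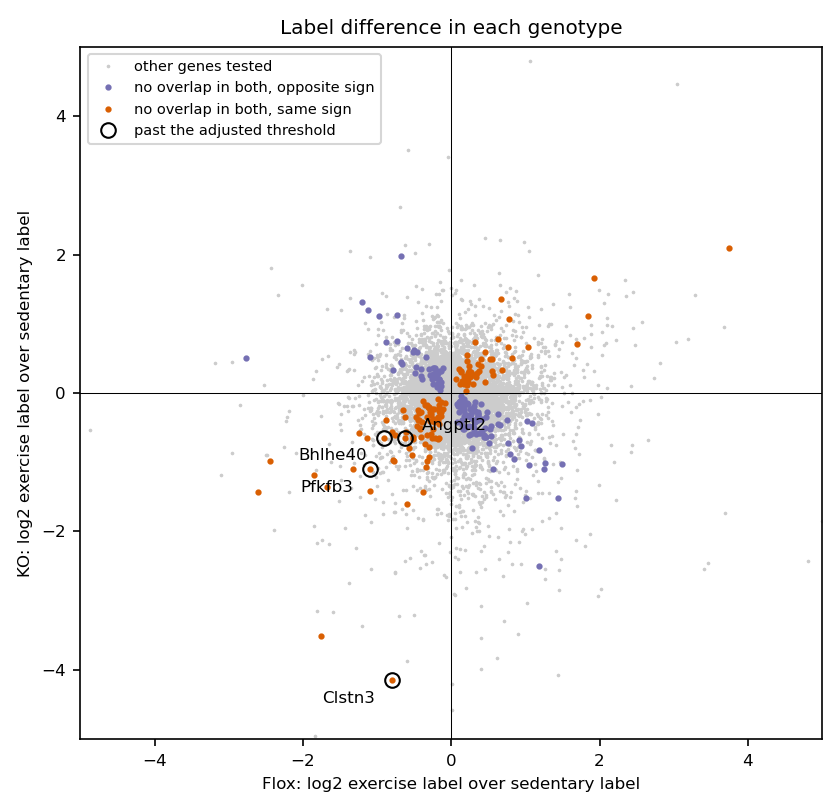
Log2 difference of the exercise label over the sedentary label in Flox (horizontal axis) and in KO (vertical axis) for 15226 genes, of which 24 lie outside the axes. The 136 same-sign and 136 opposite-sign genes without overlap are in colour and the 4 genes that passed are circled, all below 0 on both axes.

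Among the named genes with lower levels that did not pass, Casc4, a Golgi protein gene, had the smallest p. It had 11.6, 10.4 and 13.2 CPM in KO exercise libraries, against 15.5, 18.1 and 19.98 CPM in KO sedentary libraries. In Flox Casc4 had 9.92, 7.72 and 8.25 CPM in exercise libraries, against 11.6, 14.9 and 17.2 CPM in sedentary libraries. The labels did not overlap in either genotype, and the averaged difference of -0.68 ± 0.11 had an adjusted p of 0.113 in edgeR's test. Grasp, a scaffold for receptors and trafficking proteins, differed by -0.59 ± 0.11 on average, with -0.67 in KO and -0.52 in Flox, and did not pass. Dact1, an inhibitor of Wnt signalling, differed by -0.47 ± 0.10, with -0.48 in KO and -0.46 in Flox. Sh2b3, an adaptor that dampens cytokine signalling, differed by -0.31 ± 0.06, with -0.37 in KO and -0.24 in Flox. Iffo1, an intermediate filament family gene, differed by -0.47 ± 0.10. These 5 genes averaged 8.43 to 39.4 CPM over the 12 libraries, and the labels did not overlap in KO or in Flox for any of them.

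Another group of genes with lower levels had larger estimated differences in KO. Phlda3, a p53 target that restrains AKT, differed by -0.65 ± 0.12 in KO and -0.16 ± 0.13 in Flox. Gpd2, the mitochondrial glycerol 3-phosphate dehydrogenase, differed by -0.67 ± 0.12 in KO and -0.18 ± 0.13 in Flox. Apoc1, an apolipoprotein gene, had 7, 5 and 7 counts in KO exercise libraries, against 27, 71 and 153 in KO sedentary libraries. In Flox Apoc1 had 2, 3 and 0 counts in exercise libraries, against 8, 4 and 6 in sedentary libraries, so its separation there rests on very few counts. Ccrl2, a receptor for chemerin, went the other way in size, with -0.24 ± 0.13 in KO and -0.66 ± 0.13 in Flox. None of these passed in the average, and none passed for the difference between the genotypes.

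Nfil3, the repressor of D-box genes, had the smallest p among the named genes with higher levels and no overlap. It had 5.30, 5.57 and 11.5 CPM in KO exercise libraries, against 5.25, 2.59 and 2.51 CPM in KO sedentary libraries. In Flox Nfil3 had 11.0, 21.5 and 16.6 CPM in exercise libraries, against 6.19, 3.41 and 4.09 CPM in sedentary libraries. KO exercise 1 and KO sedentary 1 were close to touching, while in Flox the gap was wide. The averaged difference was 1.48 ± 0.28, with 1.11 ± 0.40 in KO and 1.85 ± 0.40 in Flox, and its adjusted p of 0.315 in edgeR's test did not pass.

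RNA-processing genes among those named with higher levels were Hnrnph3, a splicing factor (0.28 ± 0.07), Fubp1, a single-strand DNA and RNA binder (0.24 ± 0.06), and Cstf3, a cleavage factor for messenger 3' ends (0.29 ± 0.08). Mtrf1l, a mitochondrial translation release factor, differed by 0.38 ± 0.09, and Nop16, a nucleolar protein gene, by 0.32 ± 0.09. Stmn1, which destabilises microtubules, differed by 0.39 ± 0.11, and the chemokine gene Ccl9 by 1.21 ± 0.31. Zfp867, Zfp329 and Tbck differed by 0.28 to 0.34. None of these passed, and all had no overlap in either genotype.

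Of 13 clock repressor genes tested, 10 were lower and 3 were higher under the exercise label, with a median of -0.65 (-0.25 in KO and -0.91 in Flox), against 0.004 and 7785 of 15226 higher over all genes. Bhlhe40 alone passed. At an unadjusted p under 0.05, 8 were lower (against 4.87% of all genes) and Nfil3 and Cry1 were higher (against 3.58%). Of the activators, 4 of 5 were higher with a median of 0.34 (0.22 in KO and 0.46 in Flox), and of 13 output genes 9 were lower with a median of -0.39. None of the activators or outputs passed. The output list includes Hspa1b, also in the heat shock list, and Rbm3, also in the cold-inducible list, so these lists are not separate. Without KO sedentary 2 and 3 the medians were -0.43 for repressors and -0.15 for outputs. Clock genes were chosen with earlier results of these libraries known, so their counts are a description.

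Arntl, which encodes BMAL1, had 11.0, 3.04 and 19.1 CPM in KO exercise libraries, against 10.7, 4.25 and 2.51 CPM in KO sedentary libraries. In Flox Arntl had 22.5, 22.6 and 18.8 CPM in exercise libraries, against 5.07, 0.840 and 5.75 CPM in sedentary libraries. The Flox labels were far apart, whereas KO exercise 2 lay among the KO sedentary libraries and KO sedentary 1 near KO exercise 1. The averaged difference of 1.69 ± 0.55 did not pass (adjusted p = 0.492, edgeR).

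Dbp, the D-box activator, had 76.8, 187 and 23.7 CPM in KO exercise libraries, against 103, 180 and 242 CPM in KO sedentary libraries. In Flox Dbp had 51.0, 7.57 and 24.0 CPM in exercise libraries, against 200, 259 and 184 CPM in sedentary libraries. As for Arntl, KO exercise 2 was at the sedentary level, and the averaged difference was -1.92 ± 0.57 without passing. Ciart, a further repressor of the clock pair, had 4.17, 11.0 and 2.34 CPM in KO exercise libraries, against 5.54, 18.02 and 16.4 CPM in KO sedentary libraries. In Flox Ciart had 2.68, 1.52 and 1.99 CPM in exercise libraries, against 13.2, 28.4 and 11.9 CPM in sedentary libraries. Its averaged difference was -2.15 ± 0.46, also without passing.

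Nr1d1, which encodes the Arntl repressor REV-ERB alpha, was 1 of the 3 clock genes without overlap in both genotypes. It had 124, 109 and 49.1 CPM in KO exercise libraries, against 156, 129 and 137 CPM in KO sedentary libraries. In Flox Nr1d1 had 106, 41.1 and 55.2 CPM in exercise libraries, against 183, 136 and 161 CPM in sedentary libraries. The averaged difference of -0.92 ± 0.26 did not pass (adjusted p = 0.473, edgeR). Bhlhe41, the DEC2 partner of Bhlhe40, had 31.0, 47.6 and 22.3 CPM in KO exercise libraries, against 39.7, 38.8 and 41.6 CPM in KO sedentary libraries. In Flox Bhlhe41 had 23.9, 12.9 and 17.6 CPM in exercise libraries, against 42.5, 54.4 and 45.9 CPM in sedentary libraries. Here KO exercise 2 was the highest KO library, and the difference in KO minus that in Flox had an unadjusted p of 0.00925 in edgeR's test.

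Over the 31 clock genes of the 3 lists, 4 had no overlap in KO (12.9%, against 13.1% of all genes) and 23 had none in Flox (74.2%, against 14.1%). The KO share was thus at the level of all genes, and 3 clock genes had no overlap in both with 1 sign (9.68%, against 0.893%). Of the 23, 21 had the same sign in KO. The size of the difference was larger in Flox than in KO for 29 of 31. The 23 were picked by their separation in Flox, which favours a larger size there. An unadjusted interaction p under 0.05 was found for 6 of 31, against 9.88% of all genes, none passing. Leaving out KO exercise 2 left 10 clock genes without overlap in both genotypes, and so did leaving out KO sedentary 1. Over all genes tested, the same exclusions raised the 136 to 294 and 354, so the rise was not confined to clock genes. Leaving out any 1 of the other 10 libraries left 3 or 4 clock genes. Repressor means were 4.71, 5.12 and 4.39 log2 CPM in KO exercise libraries, against 4.69, 5.16 and 5.12 in KO sedentary libraries. In Flox they were 4.48, 4.20 and 4.43 log2 CPM in exercise libraries, against 5.05, 5.49 and 5.08 in sedentary libraries. KO exercise 2 thus held a repressor level like the sedentary libraries, and KO sedentary 1 a level close to that of KO exercise 1.

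**Figure D3:**
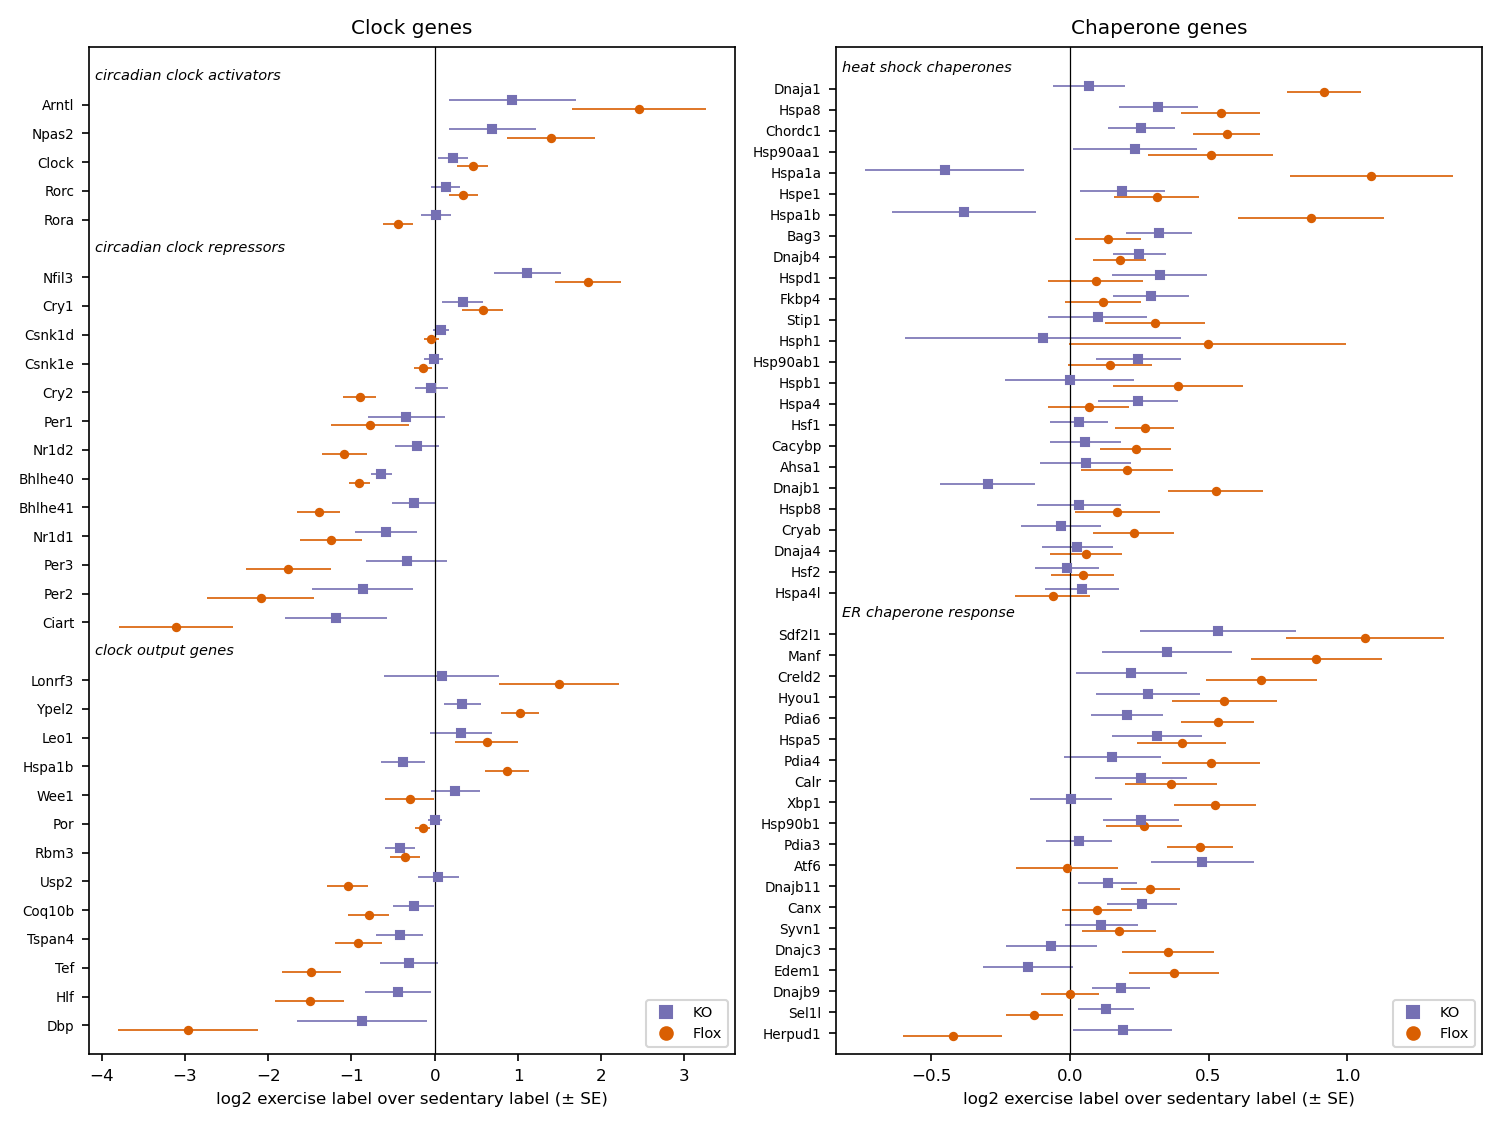
Log2 difference of the exercise label over the sedentary label with SE in KO (squares) and in Flox (circles), for clock genes (left) and chaperone genes (right) by list. Clock genes spread from Ciart and Dbp at the low end to Arntl and Nfil3 at the high end, with larger differences in Flox than in KO for 29 of 31.

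Heat shock chaperone genes were higher under the exercise label for 24 of 25 members tested, with a median of 0.20 (0.06 in KO and 0.24 in Flox). The median was 0.13 without Flox exercise 1 and 0.08 without KO sedentary 2 and 3. None passed, and 7 of 25 were higher at an unadjusted p under 0.05, against 3.58% of all genes. Of these, Hspa8, Chordc1, Dnajb4 and Bag3 had no overlap in either genotype, 4 of 25 against 0.355% of all genes. This list too was chosen with earlier results known, so its counts are a description. Hspa8, the constitutive HSC70, had 1178, 1233 and 1529 CPM in KO exercise libraries, against 1048, 1022 and 1089 CPM in KO sedentary libraries. In Flox Hspa8 had 1500.4, 1295 and 1658 CPM in exercise libraries, against 924, 994 and 1137 CPM in sedentary libraries. The labels did not overlap, by a smaller margin in KO, and the averaged difference of 0.43 ± 0.10 had an adjusted p of 0.402 in edgeR's test.

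Chordc1, a co-chaperone of HSP90, had 37.5, 37.4 and 38.7 CPM in KO exercise libraries, against 35.9, 30.1 and 29.0 CPM in KO sedentary libraries. In Flox Chordc1 had 45.6, 37.2 and 45.2 CPM in exercise libraries, against 25.4, 28.2 and 32.9 CPM in sedentary libraries. The closest pair in KO was KO exercise 2 and KO sedentary 1, and the averaged difference was 0.41 ± 0.09 without passing. Bag3, an HSP70 co-chaperone of the sarcomere, differed by 0.32 in KO and 0.14 in Flox, and Dnajb4 by 0.25 in KO and 0.18 in Flox.

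Other heat shock genes had unlike values in the genotypes. Dnaja1, an HSP70 partner of the J-domain family, had 55.5, 59.1 and 75.02 CPM in KO exercise libraries, against 56.5, 64.6 and 59.7 CPM in KO sedentary libraries. In Flox Dnaja1 had 92.0, 75.02 and 102 CPM in exercise libraries, against 47.0, 46.8 and 48.7 CPM in sedentary libraries. The KO labels overlapped and the Flox labels were far apart, with an unadjusted p of 0.000501 for the difference in KO minus that in Flox, which did not pass after adjustment (edgeR). The inducible Hspa1b differed by -0.38 in KO and 0.87 in Flox, but shares near-identical sequence with Hspa1a, so its value is uncertain.

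ER chaperone genes were higher under the exercise label for 19 of 20 members, with a median of 0.26 (0.20 in KO and 0.37 in Flox). None passed and 12 were higher at an unadjusted p under 0.05, against 3.58% of all genes. Sdf2l1, part of an ER chaperone complex, had 6.44, 3.71 and 7.35 CPM in KO exercise libraries, against 4.68, 3.35 and 4.06 CPM in KO sedentary libraries. In Flox Sdf2l1 had 8.26, 9.93 and 5.26 CPM in exercise libraries, against 4.31, 2.89 and 4.03 CPM in sedentary libraries. KO exercise 2 again lay among the sedentary libraries, while the Flox labels were apart, and the average was 0.80 ± 0.20. Hspa5, the main ER HSP70, differed by 0.31 in KO and 0.40 in Flox, Pdia6, a disulfide isomerase, by 0.21 in KO and 0.53 in Flox, and Dnajb11 by 0.14 in KO and 0.29 in Flox. Only Dnajb11 of this list had no overlap in both genotypes. No window of the 17 ER genes found held the heat shock element.

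**Figure D4:**
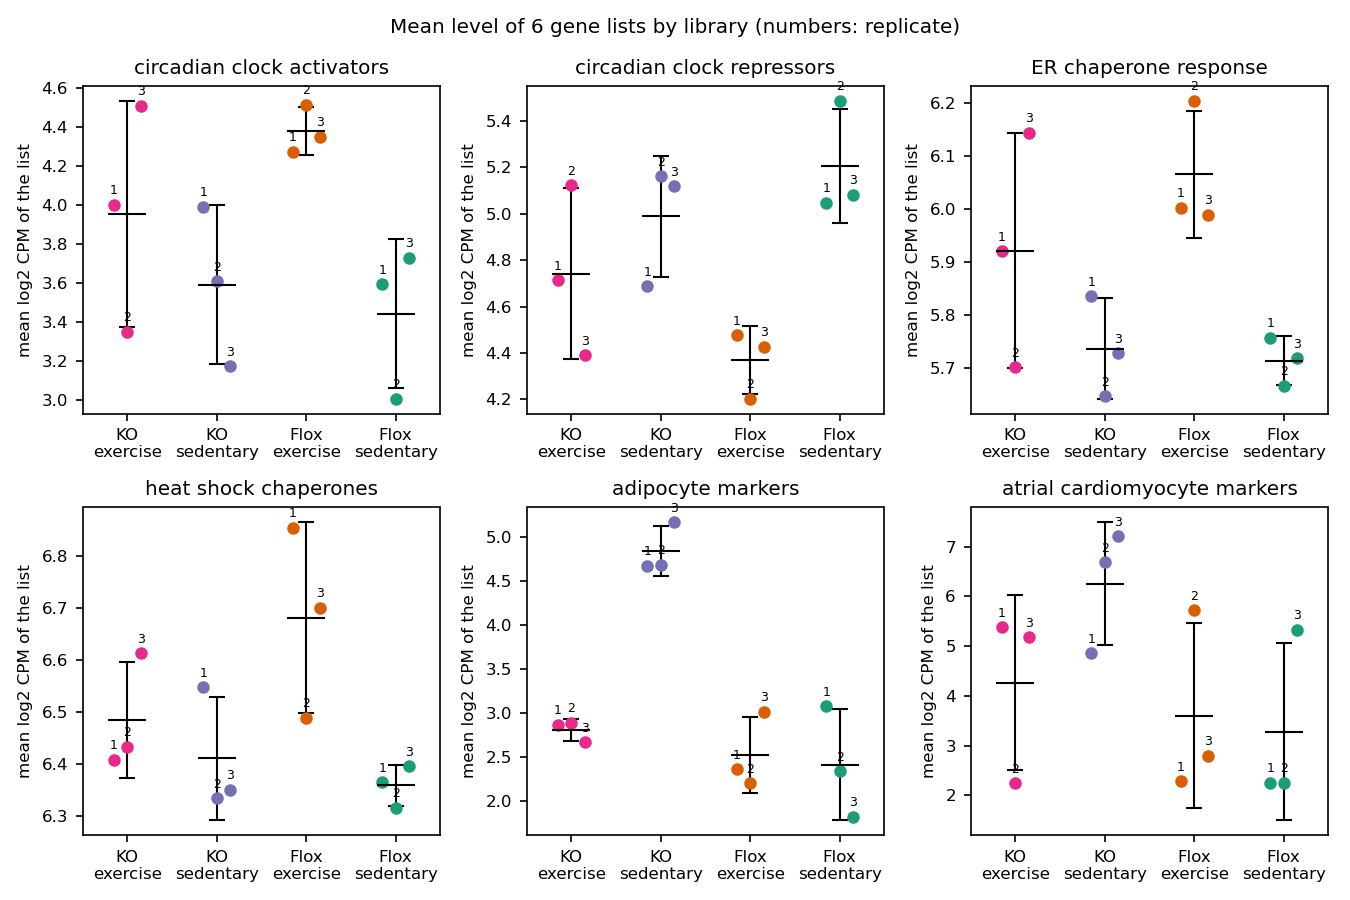
Mean log2 CPM of 6 gene lists per library (points, numbered by replicate) with mean and SD (bars, n = 3). Clock lists separate the Flox labels, KO exercise 2 lies with the sedentary libraries and KO sedentary 1 near KO exercise 1, and adipocyte markers are highest in the 3 KO sedentary libraries (4.68 to 5.17).

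Cold-inducible RNA-binding genes were lower for 3 of 3, among them Cirbp with -0.18 in KO and -0.68 in Flox, and Rbm3 with -0.41 in KO and -0.36 in Flox, none passing. The direction of the third, Srsf5, turned without KO sedentary 2 and 3 together.

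Genes of fatty acid synthesis were lower under the exercise label for 14 of 18 members, with a median of -0.11 (-0.26 in KO and -0.08 in Flox). The median was -0.17 without Flox sedentary 3 and -0.23 without KO sedentary 2 and 3. None passed, and 6 were lower at an unadjusted p under 0.05, against 4.87% of all genes. Acaca (chr11:84129672-84401651, plus strand, GRCm38), the enzyme of the committed step, had 11.7, 12.4 and 11.5 CPM in KO exercise libraries, against 31.7, 17.6 and 25.5 CPM in KO sedentary libraries. In Flox Acaca had 11.0, 12.2 and 9.41 CPM in exercise libraries, against 14.4, 14.6 and 12.6 CPM in sedentary libraries. The labels did not overlap in either genotype, by a narrow margin in Flox, and the averaged difference of -0.71 ± 0.13 had an adjusted p of 0.163 in edgeR's test.

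Fasn, fatty acid synthase, had 40.7, 29.5 and 33.6 CPM in KO exercise libraries, against 143, 46.1 and 90.0 CPM in KO sedentary libraries. In Flox Fasn had 22.2, 24.8 and 22.7 CPM in exercise libraries, against 31.3, 31.4 and 27.9 CPM in sedentary libraries. Again no label overlapped, and the averaged difference was -0.90 ± 0.22 without passing. Scd1, a fatty acid desaturase, overlapped in Flox, with 20.96, 14.7 and 27.2 CPM in KO exercise libraries, against 151, 64.1 and 173 CPM in KO sedentary libraries. Its Flox values were 16.4, 17.5 and 21.04 CPM in exercise libraries, against 25.2, 18.1 and 15.8 CPM in sedentary libraries.

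The adipocyte marker list moved with these genes in KO. Of 19 markers tested, 17 were lower under the exercise label, with a median of -1.10 in KO and 0.10 in Flox, none passing in the average. The averaged median of -0.33 was -0.19 without Flox exercise 2 and -0.19 without KO sedentary 3. Ucp1, the uncoupling protein of brown fat, had 0, 1 and 0 counts in KO exercise libraries, against 473, 758 and 2125 in KO sedentary libraries. In Flox Ucp1 had 0, 0 and 0 counts in exercise libraries, against 66, 3 and 0 in sedentary libraries, so it missed the no-overlap rule through Flox sedentary 3. Adipoq, the fat-cell hormone gene, had 0.669, 0.516 and 0.746 CPM in KO exercise libraries, against 6.12, 10.3 and 16.4 CPM in KO sedentary libraries. The part of fat tissue in the differences of Clstn3, Acaca, Fasn, Scd1 and Apoc1 was not tested.

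Nuclear-encoded respiratory chain genes were higher for 70 of 70 members, with a small median of 0.17 (0.27 in KO and 0.10 in Flox). None passed, and 15 of 70 had an unadjusted p under 0.05, against 3.58% of all genes in that direction. The mitochondrially encoded genes were higher for 11 of 13 (median 0.14), and genes of fatty acid uptake and oxidation for 32 of 35 (median 0.18, with 0.37 in KO and -0.00 in Flox). No gene in these lists was free of overlap in both genotypes with the same sign. On plain library totals the respiratory chain median was 0.09 and the mitochondrially encoded median 0.06. The median of all genes also fell there, from 0.004 to -0.065, so most of that change was common to all genes. Without Flox exercise 3 the respiratory chain median was 0.11 and the mitochondrially encoded median 0.07. The fatty acid oxidation median was 0.08 without KO sedentary 2 and 3. Atrial markers moved in the other direction, with 17 of 20 lower and a median of -0.62 that became 0.20 without KO sedentary 2 and 3 and 0.05 without Flox sedentary 3. Adding atrial marker means to the model gave medians of 0.11 (respiratory chain), 0.11 (mitochondrially encoded) and 0.13 (fatty acid uptake and oxidation). Each was smaller than in the main fit. The part of atrial markers in these differences was not tested beyond this.

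Growth lists showed little that both genotypes shared. Insulin and IGF1 signalling genes were lower for 25 of 34 with a median of -0.06, among them the receptor gene Igf1r with -0.30 in KO and -0.25 in Flox, none passing. Mitochondrial biogenesis regulators were higher for 10 of 21, exercise growth and cardiac transcription factors for 8 of 19, and hypertrophy and stretch genes for 10 of 21, with medians between -0.02 and -0.00. Cell cycle genes were higher for 21 of 34 (median 0.11, with 0.01 in KO and 0.17 in Flox) and matrix genes for 27 of 36 (median 0.16, with -0.10 in KO and 0.48 in Flox). Without KO exercise 3 the averaged median was 0.011 for cell cycle and 0.083 for matrix genes, and without Flox exercise 2 it was 0.034 for cell cycle and 0.10 for matrix genes. None of these 6 lists held a gene that passed or a gene without overlap in both genotypes.

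Of the remaining cell-type lists, red blood cell markers were lower for 7 of 7 with a median of -0.28, among them Hba-a1 with -0.63 in KO and -0.14 in Flox, which has a near-identical copy. Red blood cell medians were -0.38 in KO and -0.14 in Flox. Macrophage markers were higher for 16 of 18, with a median of -0.06 in KO and 0.63 in Flox. Flox exercise 2 had the highest macrophage mean, 4.77 log2 CPM against 3.65 and 3.99 in the other Flox exercise libraries. The averaged median of 0.26 was 0.13 without Flox exercise 2 and 0.15 without KO exercise 3. Immediate early genes were lower for 19 of 23, with a median of -0.83 in KO and 0.18 in Flox. KO sedentary 3 stood apart in their mean, at 5.11 log2 CPM against 3.67 and 3.62 in the other KO sedentary libraries. Their averaged median of -0.26 was -0.007 without KO sedentary 3 and 0.085 without KO sedentary 2 and 3. The averages for macrophage markers and immediate early genes therefore combined medians of opposite sign, and no gene of these 3 lists passed.

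**Figure D5:**
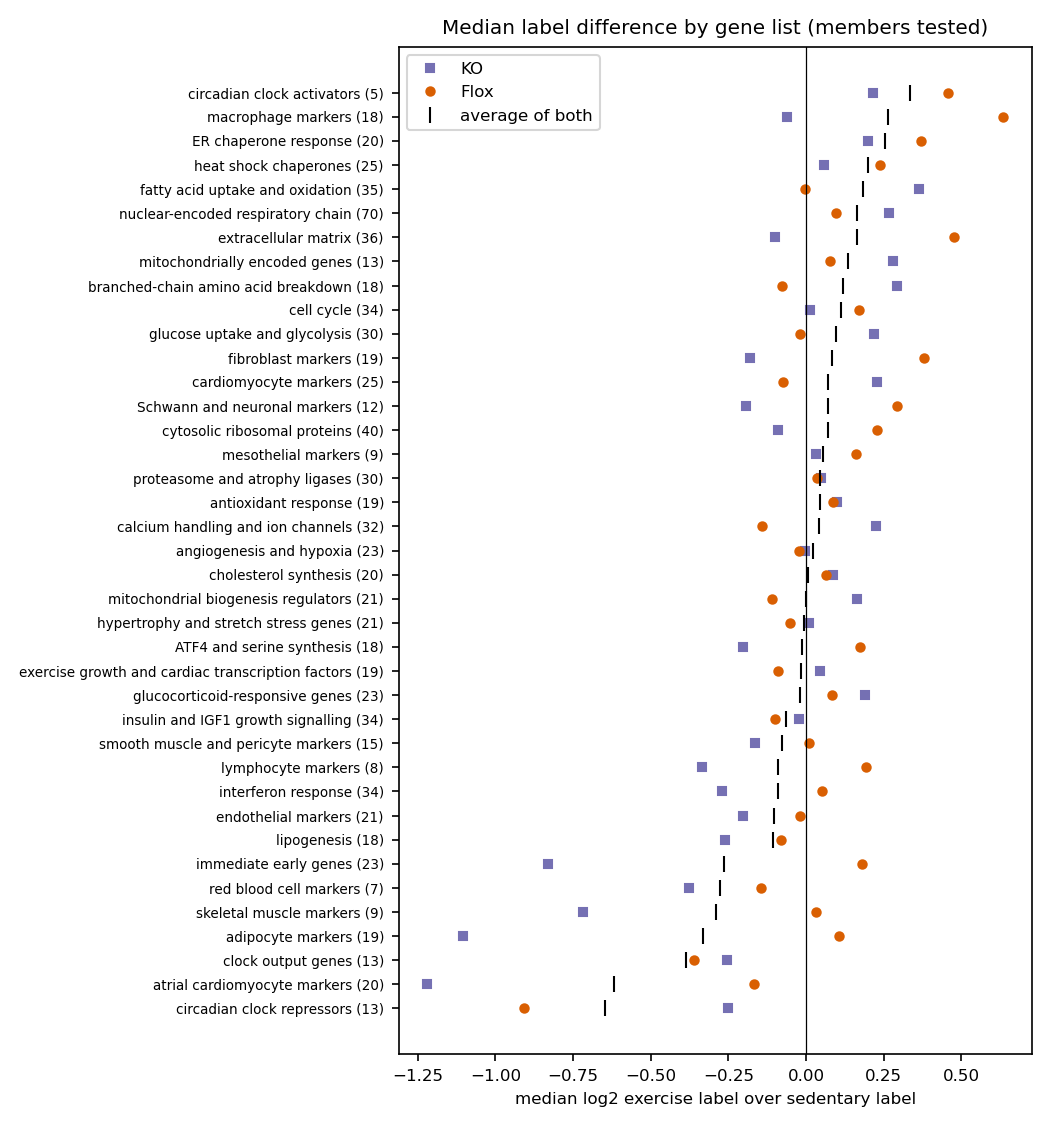
Median log2 difference of the exercise label over the sedentary label for 39 gene lists with at least 5 tested members (number in brackets), in KO (squares), in Flox (circles) and averaged (bars). Clock activators are at the top and clock repressors (-0.25 in KO, -0.91 in Flox) at the bottom, and for several lists, such as immediate early genes, KO and Flox lie on different sides of 0.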

How the data were processed

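Ribosome-depleted RNA (RiboZero and NEB kits) was sequenced in 12 libraries labelled as whole heart. The authors deposited 1 table of estimated counts per gene symbol, with no scaling between libraries. FastQC and Salmon, and the builds mm9 and mm10, appear without version or role in the submitters' processing notes, while annotation and strand setting were not given in the sources used here. Of 55874 entries, 1696 named vectors, phages or linkers and stayed out of library sizes and tests, at 0.186% of a library's counts at most.

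Estimated counts were rounded to whole numbers and tested in R 4.3.3 with edgeR 4.0.16. Genes passed filterByExpr, library sizes were TMM-scaled, and a model of 4 group means was fitted with glmQLFit (robust) and glmQLFTest, with Benjamini-Hochberg adjustment at 0.05. The effect was the mean of the label differences in KO and in Flox, and its SE is the log2 difference divided by the square root of F. CPM used TMM-scaled sizes. DESeq2 1.42.0 was an alternative. Intervals on counts were not made. Within groups no library looked like a repeat of another, for chi-square per degree of freedom was 17.1 to 84.7. Libraries of different groups were not compared in this way.

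The genes and the 28 process and 13 marker lists were chosen with earlier results of these data known, and no set test was made. Named were Cited4, 14 genes per direction by p among those with at least 1 CPM, no overlap and no predicted name, and 3 genes per list by p; other list members are named by role. One gene that the rule names is not reported here. Gene positions (GRCm38) and RefSeq promoter windows were matched by symbol.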

Additional observations from a re-analysis of the deposited data

Results flagged for a closer look

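Eng, the endothelial co-receptor endoglin, had no overlap between the labels in either genotype but opposite signs. It had 182, 140.2 and 175 CPM in KO exercise libraries, against 197, 291 and 372 CPM in KO sedentary libraries. In Flox it had 208, 243 and 216 CPM in exercise libraries, against 197, 160.3 and 194 CPM in sedentary libraries. The log2 difference was -0.79 ± 0.19 in KO and 0.276 ± 0.193 in Flox, and the difference between them had an unadjusted p of 0.00179 and an adjusted p of 0.379 (edgeR), so it did not pass.

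The entry named pBK-CMV, a cloning vector outside the gene tests, had 610, 780 and 567 counts in KO exercise libraries and 889, 818 and 732 in KO sedentary libraries. It had 8, 1 and 6 counts in Flox exercise libraries and 0, 5 and 3 in Flox sedentary libraries. The lowest KO count was 567, above every Flox library, and within each genotype the exercise and sedentary counts overlapped.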

How the results depend on the processing

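The 4 calls fell to 2 with DESeq2's size factors, rose to 51 with DESeq2's own test (all 4 included), were 10 with no filter on low counts and 1 with atrial marker means as a covariate. With terms or exclusions chosen after seeing the data they were 1 with the vector-read class and 2 without KO sedentary 2 and 3 together, neither of them among the 4. Leaving out each library gave 0 to 12 calls, 0 without Flox exercise 2, Flox sedentary 2, Flox sedentary 3 or KO exercise 1, and 12 without KO sedentary 1. The 136 genes became 182 to 354 when 1 library was left out (fewer libraries to separate) and 502 without KO sedentary 2 and 3. Bhlhe40 passed in 18 of 23 alternatives, Pfkfb3 in 10 of 23, Angptl2 in 8 of 23 and Clstn3 in 6 of 22, with the same sign throughout. Replicate numbers showed no sign of pairing the samples (correlations of deviations from -0.146 to 0.117), though groups of 3 cannot exclude it. The replicate block gave 2 calls. Within vector-read classes Bhlhe40 differed by -0.80 and -0.66. Signs of genes that did not pass turned for Cited4 (0.46 in the additive model, and -1.80 to 0.38 when 1 library was left out, with 0.06 without KO exercise 2 and 0.06 without KO exercise 3), for Krt8 (-0.91 to 1.54, with -0.39 without Flox exercise 2) and for Krt19 (-1.14 to 2.20, with -0.52 without Flox exercise 2). Without KO sedentary 2 and 3 they turned for Srsf5 (0.011), Cebpb (0.12), Eng (0.014), Gpm6a (0.45) and Mylpf (0.027). The cause of these changes was not tested. With 3 libraries a group and counts under 10, depth limits Clstn3 and Apoc1 in Flox.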

Other observations

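Genes of the heterogeneous nuclear ribonucleoprotein family, which bind and process messenger RNA, were noticed after their values were seen. Of 20 tested, 12 were higher and 8 lower under the exercise label (median 0.06), 3 had an unadjusted p under 0.05 in edgeR's test, and none passed. Hnrnpa2b1 (0.15 ± 0.07), Hnrnpa3 (0.15 ± 0.06), Hnrnpc (0.17 ± 0.06) and Hnrnph3 (0.28 ± 0.07) had no overlap in either genotype, 4 of 20 against 0.355% of all genes, a comparison of genes picked for it. Hnrnpa2b1 had an unadjusted p of 0.0690 (edgeR). Hnrnpc differed by 0.17 in KO and 0.16 in Flox, so the sizes were close in both genotypes.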
